A study of Mus musculus with 11 samples.

Results

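Interferon-stimulated genes were followed in RNA of the whole distal tibia, in 4 Control mice and 7 BMAd-DTA mice. The group holds 45 genes, taken by symbol from a list of genes that interferons are known to induce, out of 22600 genes in the merged count table. All 45 were in the table, and all 45 passed the filter on low counts that left 16496 genes for testing. The rule itself used no measured value, but the genes were chosen with earlier results of these data known. The sample labels give every mouse the strain C57BL6/SJL, an age of 24 weeks and ad libitum feeding. By the methods of the study, mice of both groups carried Osterix-FLPo and FAC, a Cre in the Adipoq gene that FLPo must first turn around, so that only cells with a history of Osterix and current Adipoq expression make Cre. BMAd-DTA mice carried in addition ROSA-DTA, a diphtheria toxin A gene behind a loxP-flanked stop, which kills cells once Cre removes the stop. The toxin is therefore directed at bone marrow adipocytes, the Cre reaches a small part of the marrow adipogenic precursors as well, and both groups have the same modified Adipoq and Osterix loci. The powdered bone contained marrow, bone and vessels together. Fewer cells of a type and less RNA per cell cannot be told apart in such bulk samples.

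Interferons are cytokines that cells release on sensing viral or other misplaced nucleic acid, or that T and NK lymphocytes release on activation. Type I interferons signal through IFNAR1 and IFNAR2 to JAK1 and TYK2, which activate ISGF3, a complex with STAT2 and IRF9 that binds the interferon-stimulated response element. Interferon gamma signals through IFNGR1 and IFNGR2 and acts on genes with a gamma-activated site. The genes induced restrict viral replication, destroy viral RNA, tag proteins with ISG15, or, in the case of the immunity-related GTPases and guanylate-binding proteins, attack vacuoles that contain pathogens. In marrow, many blood cells and stromal cells keep a low level of these transcripts without infection.

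The promoters of the genes held the letters of the interferon-stimulated response element more often than promoters at large. RefSeq promoter sequences (GRCm38.p6, 250 bases before to 50 after each transcript start) were found for 33 of the 45 genes. They were searched on both strands for the core of the response element, which is GAAA repeated after any 2 bases, and for the gamma-activated site, which is TTC and GAA separated by any 3 bases. The core was present for 19 of the 33 genes (57.6%), against 1079 of 27025 genes (3.99%) with a promoter in the table. The gamma-activated site was present for 7 of the 33 genes (21.2%), against 9.55% of all genes, and 4 genes had both motifs. A match is a match of letters and no evidence of binding in these bones. The windows that follow show the arrangement in an antiviral gene, in a near-identical pair and in 3 GTPase genes, with the core in capitals and flanking bases in lower case, and all are written 5′ to 3′ on the strand of the gene.
Isg15 (chr4:156200850-156200921, minus strand): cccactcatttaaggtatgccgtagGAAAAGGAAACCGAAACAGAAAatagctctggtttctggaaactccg
Ifit3 (chr19:34583348-34583441, plus strand): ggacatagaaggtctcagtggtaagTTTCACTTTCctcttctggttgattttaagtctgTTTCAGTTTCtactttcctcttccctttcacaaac
Ifit3b (chr19:34607744-34607837, plus strand): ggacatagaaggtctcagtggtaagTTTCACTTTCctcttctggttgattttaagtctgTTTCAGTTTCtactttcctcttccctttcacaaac
Gbp2 (chr3:142620579-142620638, plus strand): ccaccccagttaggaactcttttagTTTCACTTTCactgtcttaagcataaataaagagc
Gbp7 (chr3:142530258-142530317, plus strand): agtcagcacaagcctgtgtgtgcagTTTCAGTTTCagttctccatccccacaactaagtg
Irgm1 (chr11:48871421-48871475, minus strand): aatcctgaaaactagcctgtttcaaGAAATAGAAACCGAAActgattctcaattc

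Isg15 held 3 overlapping cores in 1 run, Irgm1 held 2 overlapping cores, and Gbp2 and Gbp7 held 1 core each, on the strand opposite to the gene. The windows of Ifit3 and Ifit3b, which lie close to each other on chromosome 19, were identical at 94 of 94 bases. The core was found for 5 of the 6 GTPase genes with a promoter (83.3%) and for 14 of 27 other members (51.9%). Positions of the cores differed, from -222 bases in Stat2 to 33 bases in Ifih1, counted from the transcript start with negative values before it. Dhx58, Ifi204, Ifi27, Iigp1, Mx1, Mx2, Oas2, Parp14, Parp9, Rtp4, Usp18 and Zbp1 had no entry in the promoter table.

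**Figure D1:**
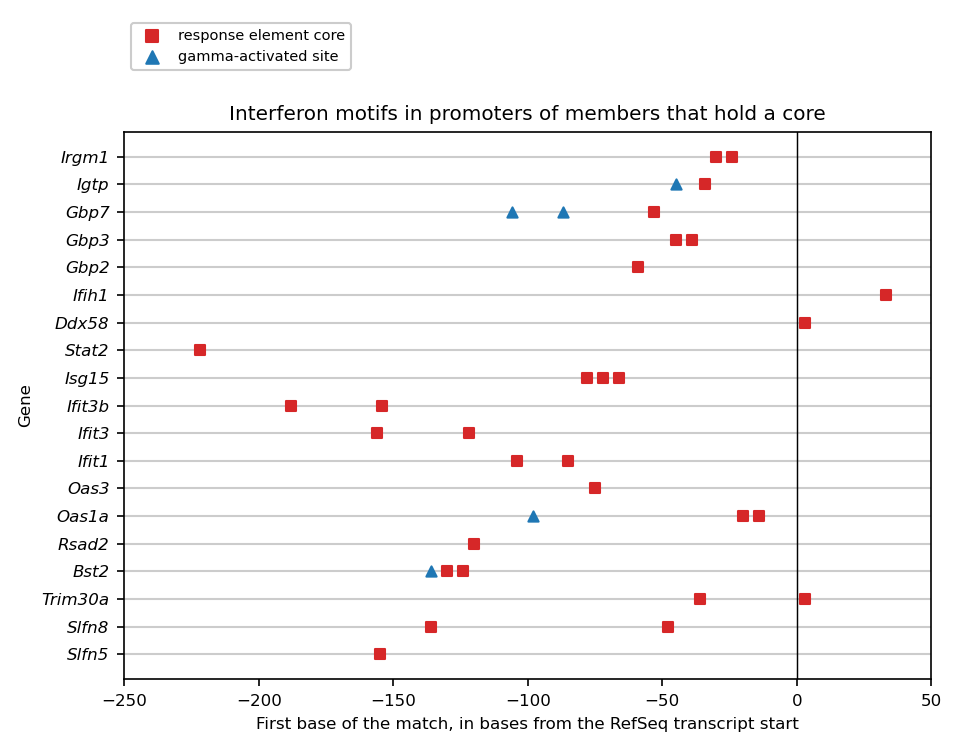
First base of each match to the response element core (squares) and the gamma-activated site (triangles), in bases from the RefSeq transcript start, for the 19 genes that held a core. Lines mark the promoter that was searched, and genes with more than 1 transcript start are drawn on 1 line, so the matches of Trim30a and Slfn8 come from different starts. The cores of the GTPase genes begin between -59 and -24 bases, and those of Ifit1, Ifit3 and Ifit3b between -188 and -85 bases.

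Sequencing depth was similar across mice, with 16969529 to 18637663 counts assigned to genes in Control and 17128711 to 18432805 in BMAd-DTA libraries. No pair of libraries of a group was alike within sampling noise. Markers of bone and fat were present in every library. Levels are given as CPM, the count of a gene scaled to the size of its library after edgeR's TMM correction of library totals. The summed level of 12 osteoblast and osteocyte markers ranged from 3417 to 13736 CPM in Control and from 16652 to 37111 CPM in BMAd-DTA bones. All 12 were fitted higher in BMAd-DTA bones. The summed level of 10 adipocyte markers, all 10 fitted lower in BMAd-DTA bones, ranged from 882 to 1772 CPM in Control and from 384 to 1096 CPM in BMAd-DTA bones. Muscle tissue was uneven, with the summed level of 10 skeletal muscle markers between 19.0 and 1311 CPM over all libraries. No listed marker of these 3 tissues was at 0 in all libraries. Control replicate 1 had the lowest osteoblast marker sum of all 11 libraries, the value of 3417 CPM, and also the highest summed level of the interferon-stimulated genes, 2967 CPM. Whether these are related was not tested.

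Most of the interferon-stimulated genes had lower fitted levels in BMAd-DTA bones, by a modest amount and with no single gene past the threshold in edgeR. The fitted level was lower in BMAd-DTA mice for 43 of the 45 genes and higher for Mx2 and Ddx58. Their median log2 fold change, BMAd-DTA over Control, of -0.30 (1.23-fold lower) stood beside one of 0.0018 for all 16496 genes, of which 49.6% were lower. None of the 45 genes had an adjusted p under 0.05 (edgeR, quasi-likelihood F test, Benjamini-Hochberg method over all genes), while 13 genes (0.0788%) of the whole table did. An unadjusted p under 0.05 was reached by 18 members, all lower in BMAd-DTA mice, or 40% of the group. Over all genes the share was 16.4% in either direction and 8.53% in the lower direction. These shares set the members beside all genes, but the members are not separate observations. Control replicate 1 had the highest level for 27 of the 45 genes, and BMAd-DTA replicate 3 had the lowest for 31. A count of genes therefore does not measure the spread between mice, and the group as a whole was not tested. The same caution applies to the groups by role and to the pathway lists. DESeq2, the tool of the study, put 8 members below an adjusted p of 0.05, namely Cmpk2, Dtx3l, Gbp7, Ifit2, Igtp, Iigp1, Irgm1 and Zbp1, all lower in BMAd-DTA mice, where 2.64% of all genes were called lower. Every BMAd-DTA library lay below every Control library for Cmpk2 and Ifit2 only, while 1.04% of all genes had that pattern. For the other 43 members the groups overlapped.

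The mean log2 CPM over the 45 genes gave 1 score per library. It was 5.39, 4.93, 4.92 and 5.18 in Control replicates 1 to 4. It was 5.05, 4.82, 4.29, 4.72, 4.97, 4.85 and 4.57 in BMAd-DTA replicates 1 to 7. The 2 highest scores belonged to Control replicates 1 and 4 and the lowest to BMAd-DTA replicate 3, while Control replicates 2 and 3 lay within the BMAd-DTA range. The group means were 5.10 ± 0.22 (SD, n = 4) and 4.75 ± 0.26 (SD, n = 7), a difference of -0.35 on the log2 scale.

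**Figure D2:**
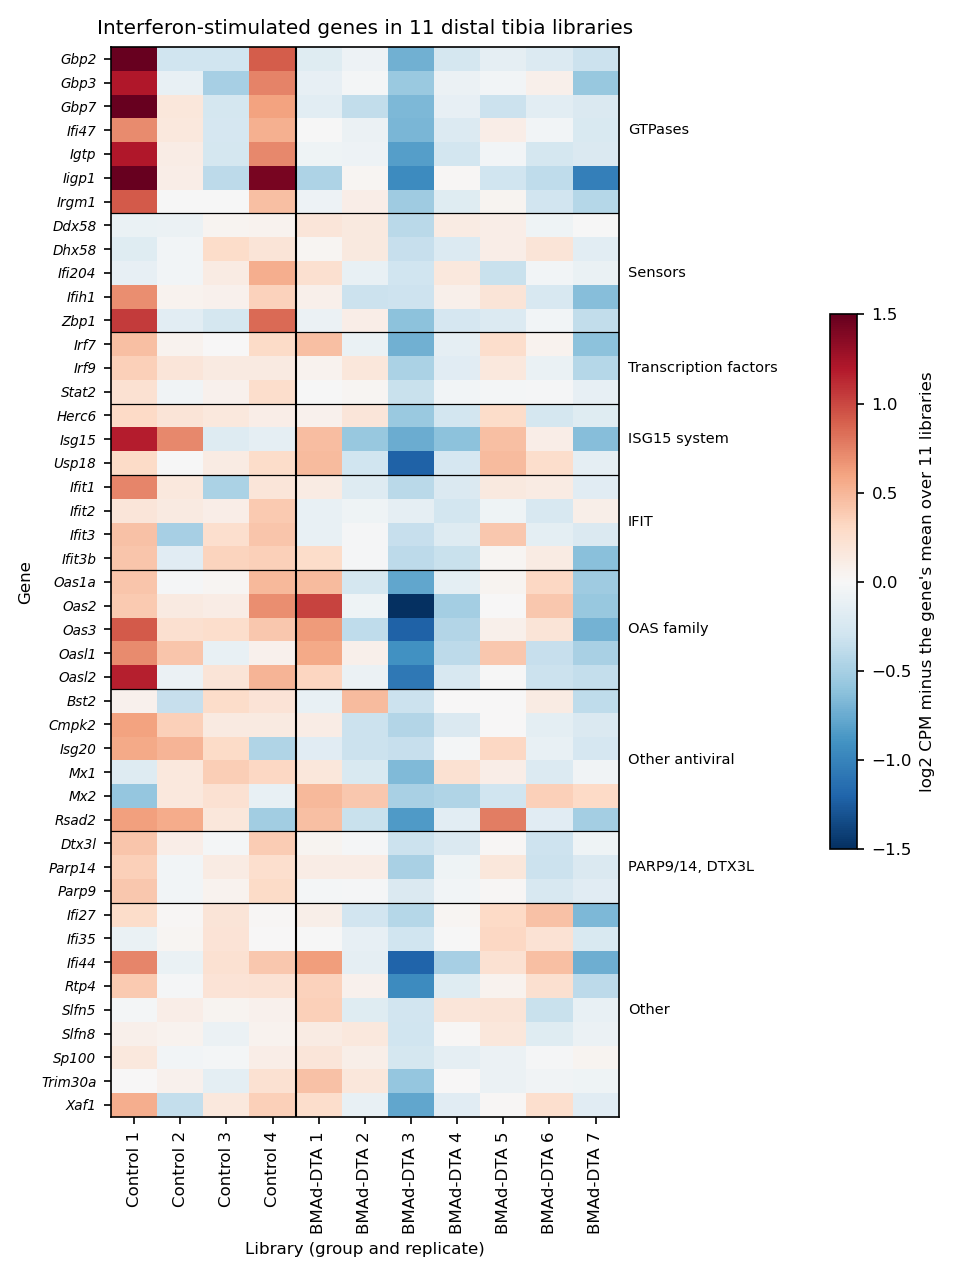
Log2 CPM of each of the 45 genes minus its mean over the 11 libraries, with rows grouped by the role of the gene and the black line dividing 4 Control from 7 BMAd-DTA libraries. Values beyond the ends of the colour scale take the end colour. Control replicates 1 and 4 are red across the GTPases and BMAd-DTA replicate 3 is blue in almost every row.

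The extremes were concentrated in single libraries. Control replicate 1 had the highest level of all 11 libraries for 27 of the 45 genes, while 15.6% of all genes tested had their highest level there. BMAd-DTA replicate 3 had the lowest level for 31 of the 45 genes, while 9.56% of all genes had their lowest level there. Control replicates 1 and 4 both exceeded every BMAd-DTA library for 20 of the 45 genes, a pattern present in 8.61% of all genes. These controls were singled out because they were high for the 45 genes. Seen as a share of assigned counts, the 45 genes took 0.296% of Control replicate 1, 0.249% of Control replicate 4 and 0.138% of BMAd-DTA replicate 3. The other libraries lay between 0.170% and 0.217%.

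Of the groups by role, the GTPases had the most negative median log2 fold change and the widest spread among controls. These are the guanylate-binding proteins Gbp2, Gbp3 and Gbp7 and the immunity-related GTPases Iigp1, Igtp, Irgm1 and Ifi47. Gbp2, Gbp3 and Gbp7 lie within 1 stretch of chromosome 3 (142530342 to 142638008, GRCm38). Igtp, Irgm1 and Ifi47 lie on chromosome 11. All 7 were fitted lower in BMAd-DTA bones with an unadjusted p under 0.05, as were 8.53% of all genes. Their median log2 fold change was -0.79 (1.72-fold lower). None passed an adjusted p of 0.05 in edgeR, while DESeq2 called Gbp7, Igtp, Iigp1 and Irgm1 and put 2.64% of all genes lower. Their mean log2 CPM was 6.71, 5.44, 5.14 and 6.19 in Control replicates 1 to 4, and between 4.72 and 5.35 in the 7 BMAd-DTA libraries, with a median of 5.26. Control replicates 1 and 4 lay above all BMAd-DTA libraries, Control replicate 2 was just above them, and Control replicate 3 was inside their range.

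Iigp1, an immunity-related GTPase that coats the vacuole of intracellular parasites, measured 211, 60.0, 42.6 and 149 CPM in Control replicates 1 to 4. In BMAd-DTA bones it ranged from 27.5 to 56.8 CPM (median 42.9). Iigp1 had a log2 fold change of -1.44 ± 0.36 (SE, edgeR adjusted p = 0.0841, exact permutation test p = 0.0242). Permutation p values, here and below, are not adjusted for the number of genes. Control replicates 1 and 4 stood far above the rest, Control replicate 2 just exceeded the BMAd-DTA range, and Control replicate 3 lay below 4 of the 7 BMAd-DTA values. Igtp, a regulatory GTPase of the same family, measured 111, 52.0, 40.2 and 79.5 CPM in controls and 27.2 to 46.7 CPM (median 41.5) in BMAd-DTA bones. Igtp had a log2 fold change of -0.79 ± 0.22 (SE, edgeR adjusted p = 0.113, exact permutation test p = 0.0242). Irgm1, also a regulatory member, measured 90.3, 47.6, 47.3 and 65.5 CPM in controls and 32.9 to 50.9 CPM (median 42.2) in BMAd-DTA bones. Irgm1 had a log2 fold change of -0.57 ± 0.17 (SE, edgeR adjusted p = 0.125, exact permutation test p = 0.0242). In both genes Control replicates 1 and 4 were the 2 highest libraries. Ifi47, another member of the family, measured 94.3, 64.4, 48.4 and 84.0 CPM in controls and 35.9 to 62.0 CPM (median 54.6) in BMAd-DTA bones (log2 fold change -0.48, edgeR adjusted p = 0.176).

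Gbp2, a guanylate-binding protein recruited to pathogen vacuoles, measured 106, 28.1, 28.1 and 65.0 CPM in controls, and in BMAd-DTA bones it ranged from 21.0 to 32.9 CPM (median 30.0). Gbp2 had a log2 fold change of -0.97 ± 0.30 (SE, edgeR adjusted p = 0.129, exact permutation test p = 0.0788). Control replicates 2 and 3 lay below the BMAd-DTA median, and only Control replicates 1 and 4 lay above the BMAd-DTA range. Gbp3 had the same arrangement, with 57.2, 23.0, 17.7 and 41.8 CPM in controls and 16.8 to 26.3 CPM (median 23.4) in BMAd-DTA bones (log2 fold change -0.66, edgeR adjusted p = 0.218). Gbp7 measured 115, 45.3, 33.7 and 61.1 CPM in controls and 25.2 to 36.9 CPM (median 34.8) in BMAd-DTA bones. Gbp7 had a log2 fold change of -0.94 ± 0.25 (SE, edgeR adjusted p = 0.0967, exact permutation test p = 0.0152). Every control but replicate 3 exceeded every BMAd-DTA library. Among all 45 genes, Iigp1, Gbp2, Gbp3 and Gbp7 had the largest spread over controls, with SDs of log2 CPM of 1.08, 0.94, 0.77 and 0.75.

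**Figure D3:**
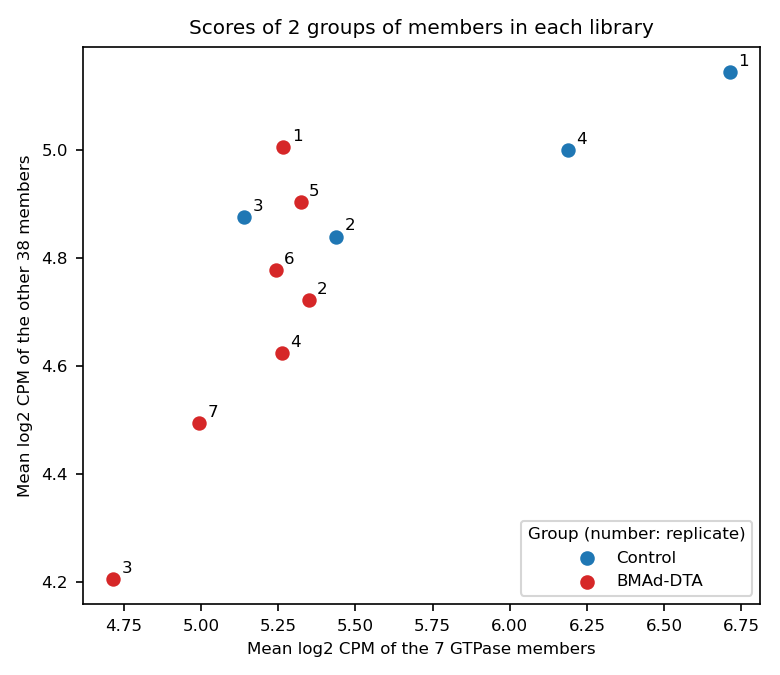
Mean log2 CPM of the 7 GTPases (horizontal axis) against that of the other 38 members (vertical axis), 1 point per library, coloured by group and numbered by replicate. Control replicates 1 and 4 lie far to the right at 6.71 and 6.19, while the other libraries stay between 4.72 and 5.44. On the vertical axis the groups overlap, and BMAd-DTA replicate 3 is lowest at 4.21.

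The other 38 members had smaller differences, a contrast with the GTPases that was not tested. Of these, 36 were fitted lower in BMAd-DTA bones, 11 (28.9%) had an unadjusted p under 0.05, and the median log2 fold change was -0.28. Over all genes, 49.6% were fitted lower. An unadjusted p under 0.05 was reached by 16.4% in either direction and by 8.53% in the lower direction. Their score was 4.96 ± 0.14 (SD, n = 4) in Control and 4.68 ± 0.27 (SD, n = 7) in BMAd-DTA mice, a difference of -0.29 on the log2 scale.

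The weight of single controls was measured by leaving them out. Without Control replicate 1, 8 of the 45 genes had an unadjusted p under 0.05, 4 of them GTPases, and the median log2 fold change of the GTPases was -0.48. In that fit 10.6% of all genes had an unadjusted p under 0.05. With Control replicates 1 and 4 both left out, a choice made after their values were seen, 2 genes had an unadjusted p under 0.05, neither a GTPase, against 10.1% of all genes. The median log2 fold change was then -0.14 over all members, -0.18 over the GTPases and -0.14 over the other 38, and 37 of the 45 genes were still lower. The low counts of calls in that fit rest on 2 controls. Without Control replicate 3, the control with the lowest GTPase levels, 5 genes passed an adjusted p of 0.05 in edgeR, namely Cmpk2, Gbp2, Gbp7, Igtp and Iigp1. Calls over the whole table grew in that fit as well, to 292 of 16757 genes (1.74%), 116 of them lower. BMAd-DTA replicate 3 weighed on the other side, and without it the median log2 fold change of all members was -0.23.

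Cmpk2 and Ifit2 were the genes whose groups were fully separated. Cmpk2, a mitochondrial nucleotide kinase with antiviral activity, lies on chromosome 12 (26469204 to 26479837) and measured 85.3, 72.3, 61.7 and 61.9 CPM in controls. Its BMAd-DTA values ranged from 41.3 to 60.6 CPM (median 48.4). Cmpk2 had a log2 fold change of -0.49 ± 0.11 (SE, edgeR adjusted p = 0.072, exact permutation test p = 0.00303). The lowest control lay just above the highest BMAd-DTA bone. Ifit2, which binds RNA and restrains translation, lies on chromosome 19 (34550694 to 34576419) and measured 24.4, 23.6, 23.1 and 28.2 CPM in controls. Its BMAd-DTA values ranged from 17.7 to 22.8 CPM (median 19.9). Ifit2 had a log2 fold change of -0.32 ± 0.09 (SE, edgeR adjusted p = 0.106, exact permutation test p = 0.00303). The difference was small, but the control spread was narrow as well. The exact p of 0.00303 is the smallest that 330 splits of 4 and 7 mice allow. With Control replicates 1 and 4 left out, the log2 fold change was -0.43 for Cmpk2 and -0.24 for Ifit2.

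**Figure D4:**
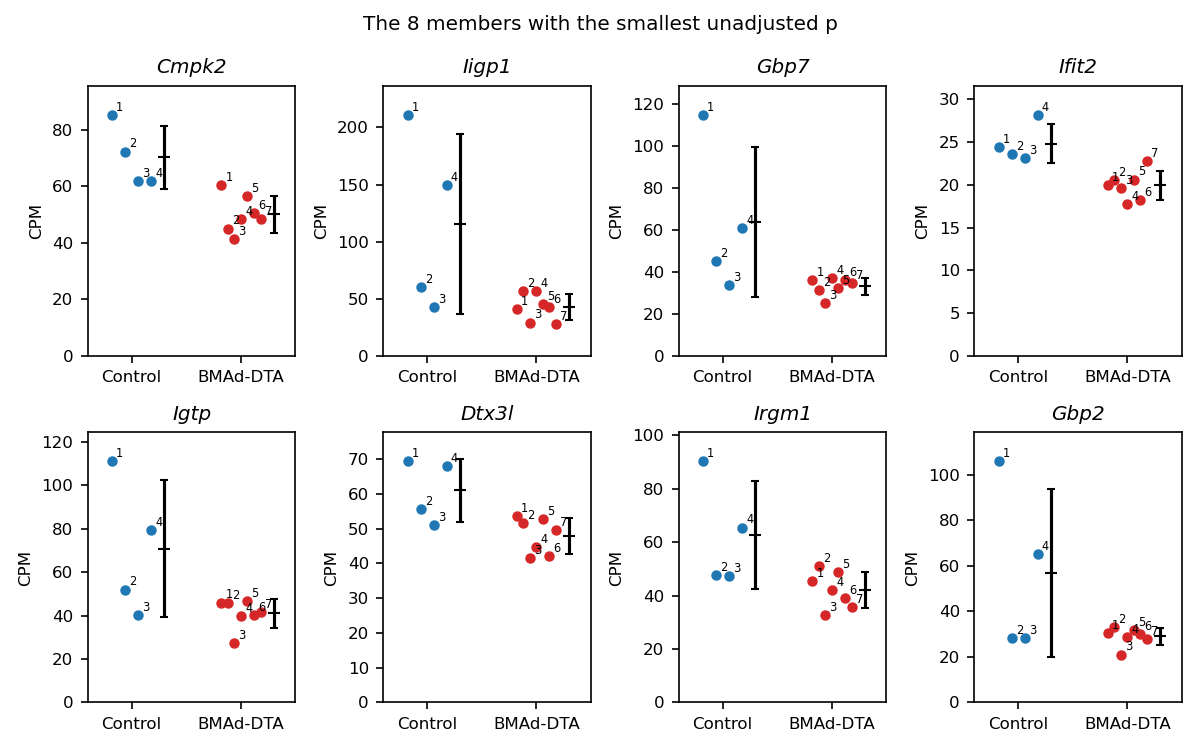
CPM in each library of the 8 members with the smallest unadjusted p in edgeR, with replicate numbers beside the points, and the mean with 1 SD as a bar (n = 4 Control, n = 7 BMAd-DTA). In Iigp1, Gbp7, Igtp, Irgm1 and Gbp2 the 2 highest points are Control replicates 1 and 4, whereas in Cmpk2 and Ifit2 all 4 controls lie above all BMAd-DTA bones.

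The remaining IFIT genes, whose proteins recognise viral RNA ends, overlapped between groups. Ifit3, an adaptor of the IFIT complex, measured 18.9, 9.83, 16.6 and 18.6 CPM in controls and 11.01 to 18.5 CPM (median 12.6) in BMAd-DTA bones (log2 fold change -0.27 ± 0.18 SE, edgeR adjusted p = 0.483, exact permutation p = 0.239). Control replicate 2 was the lowest of all 11 libraries. Ifit1 and Ifit3b had log2 fold changes of -0.29 and -0.36. The transcripts of Ifit3 and Ifit3b shared 31.7% and 27.4% of their 100-base words with each other, and read pairs with several map positions were not counted, so the levels of both are uncertain.

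In the ISG15 system none of the genes had an unadjusted p under 0.05, which 16.4% of all genes reached. Isg15, the ubiquitin-like protein that is joined to other proteins, measured 24.6, 17.9, 9.51 and 9.96 CPM in controls. Its BMAd-DTA values ranged from 6.52 to 15.0 CPM (median 7.34). Isg15 had a log2 fold change of -0.64 ± 0.31 (SE, edgeR adjusted p = 0.322, exact permutation test p = 0.124). Control replicates 1 and 2 were above every BMAd-DTA bone, and Control replicates 3 and 4 were inside the BMAd-DTA range. Usp18, the protease that removes ISG15 and dampens IFNAR2, measured 9.09, 7.42, 8.15 and 9.02 CPM in controls and 3.23 to 10.4 CPM (median 6.82) in BMAd-DTA bones (log2 fold change -0.18 ± 0.25 SE, edgeR adjusted p = 0.784, exact permutation p = 0.464). For Usp18, 4 BMAd-DTA bones lay below every control and 2 lay above every control. Herc6, the mouse ligase for ISG15, had a log2 fold change of -0.27.

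Oligoadenylate synthetases make the messenger that activates RNase L against viral RNA. All 5 family members were fitted lower (median log2 fold change -0.37), and Oasl2 and Oas3 had an unadjusted p under 0.05. Over all genes, 49.6% were fitted lower, and 8.53% were lower with such a p. Oasl2 measured 133, 55.6, 67.6 and 84.0 CPM in controls and 28.1 to 73.8 CPM (median 50.1) in BMAd-DTA bones (log2 fold change -0.72, edgeR adjusted p = 0.153). Oas3 measured 86.9, 54.2, 55.0 and 60.9 CPM in controls and 19.8 to 71.5 CPM (median 35.1) in BMAd-DTA bones (log2 fold change -0.64, edgeR adjusted p = 0.265). Oasl2 was highest in Control replicate 1. For Oas3, 6 of 7 BMAd-DTA bones lay below every control, and BMAd-DTA replicate 1 lay above 3 of the controls. Oas2 varied most within the BMAd-DTA group, from 7.04 CPM in replicate 3 to 43.4 CPM in replicate 1. Oas1a shared 40.9% of its 100-base words with Oas1g, so its level is uncertain as well.

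Among the other antiviral effectors, Isg20 and Rsad2 varied among controls. Isg20, an RNA exonuclease, measured 215, 206, 177 and 106 CPM in controls, and in BMAd-DTA bones it ranged from 114 to 179.6 CPM (median 129). Isg20 had a log2 fold change of -0.40 ± 0.17 (SE, edgeR adjusted p = 0.262, exact permutation test p = 0.127). Control replicate 4, which was high for the GTPases, had the lowest Isg20 of all libraries. Rsad2, which encodes viperin and is the neighbour of Cmpk2 on chromosome 12, measured 143, 137, 105 and 64.5 CPM in controls and 51.3 to 158 CPM (median 82.7) in BMAd-DTA bones (log2 fold change -0.30 ± 0.28 SE, edgeR adjusted p = 0.665, exact permutation p = 0.364). Its lowest control was again replicate 4, and its highest library was a BMAd-DTA bone. Mx1 and Mx2, dynamin-like antiviral GTPases whose genes are disrupted in many laboratory strains, had log2 fold changes of -0.24 and 0.14, and Bst2, which tethers budding virus, had one of -0.076.

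The 3 transcription factors of the group had small differences, all toward lower fitted levels in BMAd-DTA bones. Stat2, a subunit of ISGF3, measured 94.4, 77.7, 84.3 and 97.4 CPM in controls and 64.3 to 82.7 CPM (median 79.0) in BMAd-DTA bones. Stat2 had a log2 fold change of -0.20 ± 0.08 (SE, edgeR adjusted p = 0.235, exact permutation test p = 0.0424). Irf9, the DNA-binding subunit of ISGF3, measured 108, 95.6, 92.7 and 92.8 CPM in controls and 60.7 to 94.8 CPM (median 78.6) in BMAd-DTA bones (log2 fold change -0.30, edgeR adjusted p = 0.239). For Irf9, 5 BMAd-DTA bones lay below every control. Irf7, the factor that amplifies interferon alpha production, measured 74.2, 56.2, 54.7 and 66.4 CPM in controls and 33.1 to 74.1 CPM (median 50.8) in BMAd-DTA bones (log2 fold change -0.27 ± 0.19 SE, edgeR adjusted p = 0.522, exact permutation p = 0.212). BMAd-DTA replicate 1 lay just under the highest control.

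Sensors of nucleic acid were split. Zbp1, a sensor of Z-form nucleic acid that can trigger cell death, measured 48.5, 21.0, 19.5 and 42.2 CPM in controls and 15.3 to 25.04 CPM (median 20.3) in BMAd-DTA bones (log2 fold change -0.68, edgeR adjusted p = 0.154). Its control pattern was that of the GTPases, with replicates 1 and 4 far above replicates 2 and 3. Ifih1, the sensor MDA5 for long double-stranded RNA, measured 57.8, 36.9, 37.3 and 45.4 CPM in controls and 23.0 to 40.7 CPM (median 30.1) in BMAd-DTA bones (log2 fold change -0.46, edgeR adjusted p = 0.173). Ddx58, the sensor RIG-I, Dhx58, their regulator LGP2, and Ifi204, a DNA sensor, had log2 fold changes of 0.043, -0.096 and -0.21.

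Parp9 and Dtx3l form a complex of an ADP-ribosylation factor and a ubiquitin ligase, and they lie next to each other and to Parp14 on chromosome 16 (35832874 to 35972605). Dtx3l measured 69.4, 55.7, 51.2 and 67.9 CPM in controls and 41.5 to 53.6 CPM (median 49.6) in BMAd-DTA bones. Dtx3l had a log2 fold change of -0.35 ± 0.10 (SE, edgeR adjusted p = 0.119, exact permutation test p = 0.0182). Parp9 measured 57.3, 42.1, 44.9 and 53.0 CPM in controls and 36.5 to 43.6 CPM (median 42.0) in BMAd-DTA bones (log2 fold change -0.29, edgeR adjusted p = 0.134). In both genes 3 of the 4 controls exceeded every BMAd-DTA bone, and leaving out Control replicates 1 and 4 gave log2 fold changes of -0.16 for Dtx3l and -0.12 for Parp9. Parp14 had a log2 fold change of -0.27.

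The 9 members of other kinds had a median of -0.069 on the log2 scale. None reached an unadjusted p under 0.05, which 16.4% of all genes did. Sp100, a nuclear body protein, had the highest CPM of the 45 genes, a scale that does not allow for gene length, with 282, 246, 248 and 272 CPM in controls and 211 to 287 CPM (median 251) in BMAd-DTA bones (log2 fold change -0.069 ± 0.08 SE, edgeR adjusted p = 0.731, exact permutation p = 0.403). Slfn5, a Schlafen family member, measured 83.0, 90.7, 86.8 and 88.2 CPM in controls and 67.3 to 109 CPM (median 78.0) in BMAd-DTA bones (log2 fold change -0.048 ± 0.12 SE, edgeR adjusted p = 0.893, exact permutation p = 0.624). For Slfn5, 4 BMAd-DTA bones lay below every control and 3 lay above every control. Slfn8, Ifi35, Trim30a, Ifi27, Rtp4, Xaf1 and Ifi44 had log2 fold changes between -0.41 and -0.031. The mean level per length over all 11 libraries was highest for Isg20 (80.2 CPM per kilobase of exon) and Bst2 (41.4 CPM per kilobase) and lowest for Ifi44 (0.620 CPM per kilobase) and Mx2 (0.707 CPM per kilobase).

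**Figure D5:**
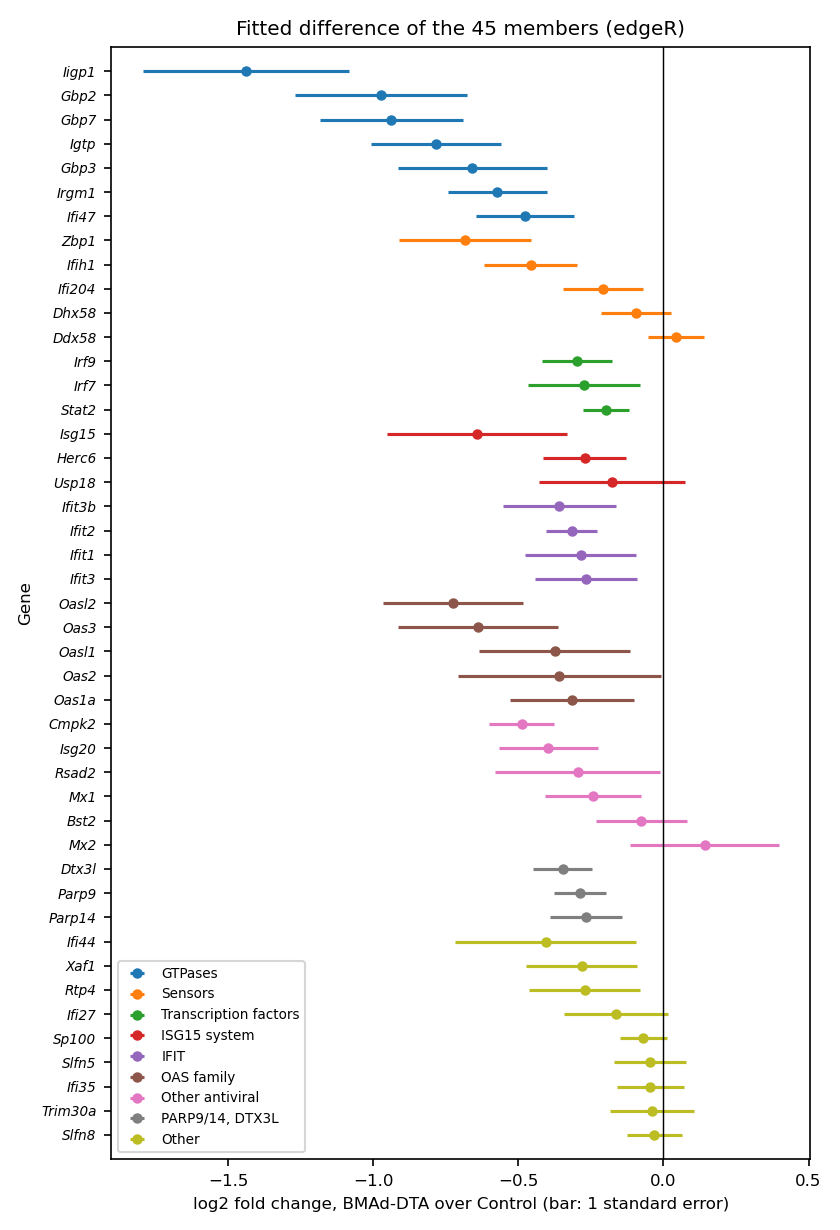
Fitted log2 fold change of BMAd-DTA over Control for each of the 45 genes, with bars of 1 standard error from edgeR's quasi-likelihood fit, grouped and coloured by role. Points left of 0 are lower in BMAd-DTA bones. The GTPases reach -1.44 in Iigp1, and Mx2 and Ddx58 alone lie right of 0.

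Further genes of the pathway were tested in the same fit. Of 130 such genes, among them 21 interferon genes and 72 other genes that interferons induce, 108 were in the merged table and 106 were tested. In BMAd-DTA bones 76 of them were fitted lower and 30 higher, the median log2 fold change was -0.12, and none passed an adjusted p of 0.05 in edgeR. Over all genes tested, 49.6% were fitted lower, 8.53% were lower with an unadjusted p under 0.05, and DESeq2 called 2.64% lower. Among the pathway genes, 25 reached an unadjusted p under 0.05 in the lower and 1 in the higher direction, and DESeq2 called 10, all lower. The other induced genes made up most of these, with 59 of the 76 lower genes, 20 of the 25 with a low unadjusted p and 9 of the 10 called by DESeq2. In the 4 lists upstream of the induced genes, a lower and a higher fitted level were found for 1 and 5 receptors, 4 and 5 signal carriers, 10 and 4 genes of interferon induction, and 3 and 5 inhibitors.

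The interferons themselves had few counts or none. Of 21 interferon genes in the per-library counts, 18 had 0 counts in all 11 libraries, among them all 13 numbered Ifna genes and Ifnb1. By sampling alone, a count of 0 allows up to 3 counts per library. Read pairs with several map positions were not counted, and sequence shared among the interferon genes was not measured. A count of 0 therefore does not establish that a gene was silent. Ifng, the gene of interferon gamma, had 9, 1, 5 and 6 counts in Control replicates 1 to 4 and 7, 17, 0, 6, 8, 4 and 1 in BMAd-DTA replicates 1 to 7. The groups overlapped, and Control replicate 1 was not set apart from several BMAd-DTA bones. Ifnz had 4 counts and Ifnab 5 counts over all libraries. These counts are too low for a test.

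Of the receptor chains, 5 of 6 had a higher fitted level in BMAd-DTA bones. Ifnar1 had a log2 fold change of 0.13 and Ifnar2 one of 0.034. Over the 6 genes the median was 0.082, from -0.26 in Ifnlr1, the lambda receptor, to 0.16 in Ifngr2. Signal carriers outside the 45 genes had a median of 0.0013 over 9 genes, the highest being 0.25 in Irf3. Irf1, a transcription factor induced by interferon gamma, had a log2 fold change of -0.26 (edgeR adjusted p = 0.244).

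Sensors and adaptors that lead to interferon production had a median of -0.067 on the log2 scale over 14 genes, from -0.34 in Tlr8 to 0.094 in Tlr9. Inhibitors of the response had a median of 0.030 over 8 genes, from -0.11 in Pias1 to 0.15 in Socs1. None of these genes passed an adjusted p of 0.05 in edgeR.

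Of 70 other induced genes tested, 59 had lower fitted levels, as did 49.6% of all genes, and the median log2 fold change was -0.15. The lowest of the list was Gbp11, a guanylate-binding protein, which measured 3.86, 1.53, 4.43 and 1.81 CPM in controls and 0.115 to 1.31 CPM (median 0.517) in BMAd-DTA bones. Gbp11 had a log2 fold change of -2.27 ± 0.53 (SE, edgeR adjusted p = 0.0724, exact permutation test p = 0.00909). Gbp8 measured 47.7, 24.0, 23.2 and 29.2 CPM in controls and 14.3 to 20.5 CPM (median 15.8) in BMAd-DTA bones. Gbp8 had a log2 fold change of -0.92 ± 0.18 (SE, edgeR adjusted p = 0.0675, exact permutation test p = 0.00303). Every BMAd-DTA bone lay below every control for both genes. In all, 4 genes of the list had that pattern, as did 1.04% of all genes tested. The annotated span of Gbp8 overlaps those of Gbp9 and Gbp4 on the same strand, and that of Irgm2 overlaps Igtp. What such overlap does to the counts of these genes was not measured, so their levels are uncertain. Other GTPases of the list had log2 fold changes of -1.70 (Gbp10), -1.68 (Tgtp1), -1.22 (Tgtp2) and -0.86 (Irgm2). Those of Gbp5, Gbp4, Gbp6 and Gbp9 were -0.71, -0.68, -0.50 and -0.44. For Gbp10, Tgtp1, Tgtp2, Gbp5 and Gbp4, only Control replicates 1 and 4 lay above every BMAd-DTA bone. This did not hold for Irgm2, Gbp6 or Gbp9. Gbp10 was low throughout, at no more than 2.87 CPM in any library. Ifit1bl1, a relative of Ifit1, had one of -1.13. The chemokines Cxcl9 and Cxcl10, which draw activated T cells, had log2 fold changes of -1.19 and -0.14. Cxcl9 measured 128, 24.4, 29.8 and 50.1 CPM in controls and 13.7 to 33.2 CPM (median 27.3) in BMAd-DTA bones. Only Control replicates 1 and 4 lay above its BMAd-DTA range. The highest of the list was Apol9a at 0.35, with under 1 CPM in every library. Shisa5, the 1 gene with an unadjusted p under 0.05 in the higher direction, measured 237, 267, 305 and 304 CPM in controls and 310.4 to 449 CPM (median 337) in BMAd-DTA bones. Shisa5 had a log2 fold change of 0.32 ± 0.11 (SE, edgeR adjusted p = 0.152, exact permutation test p = 0.00606). Every BMAd-DTA bone lay above every control for Shisa5, the 1 gene of the list with that pattern. The share of all genes with that pattern is not given here. Of all 16496 genes tested, 1301 were higher in BMAd-DTA bones with an unadjusted p under 0.05. Gbp8, Gbp10, Tgtp1, Tgtp2, Irgm2, Gbp5, Gbp4, Gbp6, Gbp9, Ifit1bl1, Cxcl9 and Shisa5 were chosen after their values were seen.

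Markers of the blood cells and vessels that a whole bone holds were read beside the 45 genes. The summed level of 10 T and NK lymphocyte markers ranged from 114 to 172 CPM in Control and from 152 to 210 CPM in BMAd-DTA bones, with 9 of 10 genes higher in BMAd-DTA bones, and it was lowest in Control replicate 1. The 9 plasmacytoid dendritic cell markers were all fitted higher in BMAd-DTA bones, with sums of 453 to 591 CPM in Control and 527 to 637 CPM in BMAd-DTA bones. The 12 macrophage markers summed to 2782 to 3088 CPM in Control and 2734 to 3073 CPM in BMAd-DTA bones. The 10 neutrophil markers summed to 20946 to 26659 CPM in Control and 18187 to 26300 CPM in BMAd-DTA bones. For the last 2 lists the ranges of the groups overlapped over most of their width. The 7 erythroid markers tested, all fitted lower in BMAd-DTA bones, summed to 10600 to 23966 CPM in Control and 13928 to 24338 CPM in BMAd-DTA bones, with the lowest sum in Control replicate 4. The 8 B lymphocyte markers, all fitted higher in BMAd-DTA bones, summed to 457 to 1042 CPM in Control and 789 to 1833 CPM in BMAd-DTA bones, with the lowest sum in Control replicate 1. The 7 endothelial markers, all fitted lower in BMAd-DTA bones, summed to 685 to 733 CPM in Control and 522 to 761 CPM in BMAd-DTA bones. No tested marker of these 7 lists was at 0 in all libraries. The part of cell composition in the levels of the interferon-stimulated genes was not tested.

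Among tested genes outside the 45, those most like their score over the 11 libraries were Plekho2 (Pearson r = 0.94), Ston2 (0.93), Gm4070 and Gm46224 (0.91 each), Parm1 (0.91), Adar (0.90), Ly6g6f (0.90), Cntn1 (0.88), Tubb2a (0.88) and Fcgr1 (0.88). These correlations are descriptions over 11 libraries that share 2 high controls and 1 low BMAd-DTA bone. Adar, the RNA editing enzyme with an interferon-induced form, was the only one of the 10 in the pathway lists.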

How the data were processed

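RNA of powdered whole distal tibiae was sequenced as stranded paired-end libraries, 1 per mouse. The authors checked reads with FastQC 0.11.9, aligned them to mm10 with STAR and deposited raw counts per gene, for each library and merged. The annotation release is not given in the sources used here. Pairs with several map positions are not in the counts. The merged table matched the counts on the read strand of each library, and interferon genes outside it were taken from those.

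The test across genes was that of edgeR 4.0.16 in R 4.3.3 (filterByExpr, TMM, glmQLFit and glmQLFTest, two-sided, genotype the only term, Benjamini-Hochberg adjustment over 16496 genes). CPM used TMM-scaled totals, and scores are mean log2 CPM with a prior count of 2. Single genes were also tested on log2 CPM by exact two-sided permutation over 330 splits, with no adjustment for the number of genes. Alternatives were DESeq2 1.42.0, limma-voom (limma 3.58.1), a robust fit, other scalings, filters and count columns, a muscle covariate and each library left out. The steps were tested on simulated data. GENCODE M21 gave positions, exon lengths and shared 100-base words, and RefSeq gave promoters. Replicate numbers follow accession order and pair nothing.

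The genes and lists were chosen with earlier results of these data known. A rule named the genes to be given with values per library. It named the 8 members with the smallest unadjusted p and the 4 with the largest spread over controls. It also named the 4 with the highest CPM, Irf7, Stat2, Usp18, Isg15 and Ifit3. In the pathway lists it named the genes with the largest or smallest change. Of these pathway genes only Gbp11 has values per library here, and the others reported have log2 fold changes only. A result for 1 gene that this rule names is not reported here. The values per library of Ifi47, Oasl2, Oas3, Zbp1, Ifih1 and Parp9 were added after their values were seen. Slfn5, whose values per library are also given, falls outside this rule.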

Additional observations from a re-analysis of the deposited data

Results flagged for a closer look

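In 8 of 112 sets of 4 or 7 libraries that were checked, 1 library lay far from the others of its group, where chance alone gives about 1 in 20 such sets. The measure was the gap to the nearest library as a share of the range of the group. BMAd-DTA replicate 3 was the low library in 6 of the 8. Its log2 CPM was 5.68 for Ddx58 (next lowest 6.02), 6.01 for Stat2 (6.22) and 4.40 for Gbp2 (4.80). It was 4.77 for Igtp (5.32), 5.17 for Ifi47 (5.63) and 3.16 for Xaf1 (3.77).

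The other two were in controls. Control replicate 2 was low for Ifit3b, with a log2 CPM of 1.77 against 2.26 in the next control, and Control replicate 3 was low for Slfn8, with 5.04 against 5.17. No control was singled out for a high level by this measure, which rests on the gap to the nearest library. Where 2 of the 4 controls are high, as for Iigp1, it can miss both. No cause was tested for any of these values.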

How the results depend on the processing

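No paired analysis was possible because the labels give no replicate numbers. The test decided the number of members past an adjusted p of 0.05, which was 0 in edgeR and 8 in DESeq2, and for the other pathway genes 0 and 10; limma-voom and the robust fit gave 0 for the members. Leaving out 1 library gave 0 to 5 members past an adjusted p of 0.05 and 0 to 4 pathway genes, with the highest values without Control replicate 3, where calls over all genes also went from 13 to 292. It gave 8 to 22 members with an unadjusted p under 0.05, with 8 without Control replicate 1. The share of all genes with such a p ran from 10.6% without Control replicate 1 to 19.6% without Control replicate 3. The same fits gave 41 to 44 members with a lower fitted level, a median log2 fold change of -0.35 to -0.23 and a score difference of -0.41 to -0.26. The median of the GTPases was then -0.97 to -0.48. With Control replicates 1 and 4 both left out, added after the data were seen, 2 members had an unadjusted p under 0.05, against 10.1% of all genes. In that fit the log2 fold change changed sign for Zbp1 (0.0065), Ifit1 (0.043), Mx2 (-0.11), Gbp2 (0.033), Gbp3 (0.11), Trim30a (0.038), Slfn8 (0.00052) and Sp100 (0.0058). Leaving out 1 library turned the sign only for genes near 0, namely Mx2 (-0.00096 to 0.25), Bst2 (-0.19 to 0.0023), Ifi35 (-0.10 to 0.017), Trim30a (-0.13 to 0.038), Slfn5 (-0.12 to 0.00026) and Slfn8 (-0.063 to 0.013). The causes were not tested. Of 1035 values of single members under the alternatives, 1007 stayed on the same side of the threshold with the same sign, 13 newly passed it and 15 changed sign. Scaling moved the median of all genes by 0.015 or less. The score was not recomputed under other tests or the covariate, which do not alter it.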
